A study of Rattus norvegicus with 17 samples.

Results

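The genes described here encode the proteins of the cytosolic ribosome, measured in the liver of male rats after short oral treatment with isopropylated phenol phosphate (IPP). They were chosen by name alone. A gene entered if a probe set carrying its symbol and no other bore an Rpl or Rps symbol followed by a digit, or was Rplp0, Rplp1, Rplp2 or Rpsa. Pseudogenes, symbols with "-like" and the S6 kinases were left out, and where a gene had several such probe sets the brightest over the 17 arrays stood for it. This gave 48 of the 14217 genes measured, 15 of the small subunit and 33 of the large subunit.

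IPP is a mixture of aryl phosphate esters used as a flame retardant and plasticizer. All rats were male Harlan Sprague-Dawley animals that received corn oil by gavage once a day on 4 days, with liver taken on day 5, and 1 Affymetrix array was run per rat. The vehicle group of 5 rats received corn oil alone, and 3 rats each received IPP in corn oil at 76.5, 153, 305.5 or 611 mg/kg body weight. In molar terms the lowest dose was 0.169 mmol/kg and the highest 1.35 mmol/kg. The age of the rats is not given in the sources used here, and the 5 vehicle rats served all 4 comparisons, so errors of the 4 differences are shared.

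A ribosome joins a small subunit, which reads the messenger RNA, to a large subunit, which forms the peptide bond, and each of its proteins is made in amounts matched to the others. Most of these messenger RNAs begin with a cytosine followed by a run of pyrimidines, the 5′ terminal oligopyrimidine (TOP) motif. Through it their translation, more than their abundance, follows mTOR signalling and nutrient supply. Hepatocytes, which secrete most plasma proteins, are rich in ribosomes.

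The start sites of members with a long or a short pyrimidine run are shown because the run is the feature that most members share and that the naming rule did not use. Each line gives the 15 bases before and the 15 bases after the annotated gene start, 5′ to 3′ on the gene's strand, from RefSeq on the GRCr8 build, with the longest run of C and T among the printed bases in capitals.
Rpl34 (chr2:221962269-221962298, minus strand): CCCCTTCCTTTTCCTCTTCCggggacggtg
Rpl35 (chr3:43165907-43165936, minus strand): cgCCCCTTCCTCTTTCTCTCgaaccgggcg
Rps24 (chr16:96502-96531, plus strand): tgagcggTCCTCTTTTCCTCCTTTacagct
Rpl22 (chr5:168117946-168117975, plus strand): gtagtgcgCCCCCCTCCCTTTCTgcctcct
Rpl14 (chr8:129163605-129163634, plus strand): gggcgggCCCTCTCCCTTCTCgctgagcgc
Rplp0 (chr12:46718376-46718405, minus strand): gaccgcaccgcaCTTCTCTCgccaggcgtc
Rps13 (chr1:180009646-180009675, minus strand): gccgtttcctacctcgTTCTCTCTTTgctt
Rpl3l (chr10:14258431-14258460, plus strand): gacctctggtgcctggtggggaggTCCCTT
Rpl39l1 (chr10:5966607-5966636, minus strand): actgccaggccgTCCCgctatcctggtgtg
Rps27l (chr8:76443643-76443672, plus strand): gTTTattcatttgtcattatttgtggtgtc

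In Rpl34, Rpl35, Rps24, Rpl22, Rpl14 and Rplp0 the run spans the annotated start. In Rps13 it begins downstream of it, and in the paralogs Rpl39l1 and Rps27l the runs are short. Core genes had short runs too, among them Rpl11, Rpl26 and Rpl41, not printed, each with a longest run of 3 bases in the same span. The run of Rpl3l continues past the printed bases and holds 9 bases in the wider window searched next. A start was listed for 43 of the 48 members, 41 matched by gene ID and 2 by symbol. In the 50 bases centred on the start, a run of at least 8 C or T letters on the gene's strand was present in 30 of the 43 members (69.8%) and in 6485 of 33469 starts of all genes in the table (19.4%). The median longest run was 10 bases among the members and 5 bases among all starts. The letters CTTTC, which often lie within such a run, were found in 19 of 43 members (44.2%) against 6.39% of all starts. The same motif on the opposite strand, read as GAAAG, was found in 0 of 43 members against 6.45% of all starts. These matches describe letters in a window around an annotated start and not a measured transcript end.

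Array medians of the deposited log2 values lay between 6.29 and 6.40, and arrays correlated pairwise at 0.975 to 0.996. Precision is limited by the number of rats. On the array of 611 mg/kg rat 2 the GAPDH control probe sets at the 3′ and 5′ end of the transcript differed by 2.89, against 0.928 to 1.56 on the other 16 arrays, a difference that is read as a measure of RNA integrity. The 6 hepatocyte markers (Alb, Apoa1, Ttr, Serpina1, Cps1 and Apoh) were near the top of the scale in every rat, with a mean signal of 14.6 to 14.7, as in liver, and their median difference from vehicle was -0.028, -0.013, -0.012 and -0.015 in order of dose, with none called. Liver pieces hold several cell types, so fewer cells of a type and less RNA per cell cannot be told apart.

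Members fell into 2 ranges of array signal, a property of each probe set that does not rank the genes by abundance. For 38 members, 12 of the small and 26 of the large subunit, the probe set had a mean between 12.3 and 14.4. For the other 10 the mean lay between 4.14 and 9.91. Among these 10 were the paralogs Rpl3l, Rpl7l1, Rpl26l1, Rpl39l1 and Rps27l, the Rps4 copy Rps4y2, and the core genes Rpl28, Rpl30, Rpl39 and Rps13. Rpl28, Rpl30 and Rps13 were also listed on brighter probe sets that carry several symbols and so did not enter. The split at a log2 signal of 12 was made after the values were seen.

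Array signal of the ribosomal protein genes stayed close to vehicle at all 4 doses (limma, adjusted p under 0.05 over all genes taken as a call). None of the 48 was called at 76.5, 153 or 305.5 mg/kg, where 0.267%, 0.746% and 2.22% of all genes were called. At 611 mg/kg 1 member was lower, Rps13, and none was higher, beside 2.42% of all genes called lower and 5.04% called higher. Along the rank of the dose group, from 0 for vehicle to 4 for 611 mg/kg, 1 member fell, again Rps13, and none rose, beside 2.78% and 3.96% of all genes. At an unadjusted p under 0.05 the members passing numbered 1, 1, 1 and 2 in order of dose and 3 for the slope. The shares of all genes passing that threshold were 10.7%, 11.9%, 13.5%, 24.2% and 21.3%.

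The intervals around these differences were narrow enough to bound them as differences in array signal. For the dim probe sets no detection call was used to tell signal from background, so the bound need not hold for the gene's RNA. The bright probe sets lay toward the top of the signal range of the arrays. Whether signal there keeps pace with RNA was not tested, so their bound too is one of array signal alone. The 95% interval of every member at every dose lay within 1 log2 unit of vehicle. For the 38 members of bright probe sets every interval at every dose lay within 0.5, the outermost bounds being -0.478 and 0.406. The median SD among rats of a group was 0.125 over members and 0.152 over all genes, and among the vehicle rats alone it was 0.065 and 0.120.

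**Figure D1:**
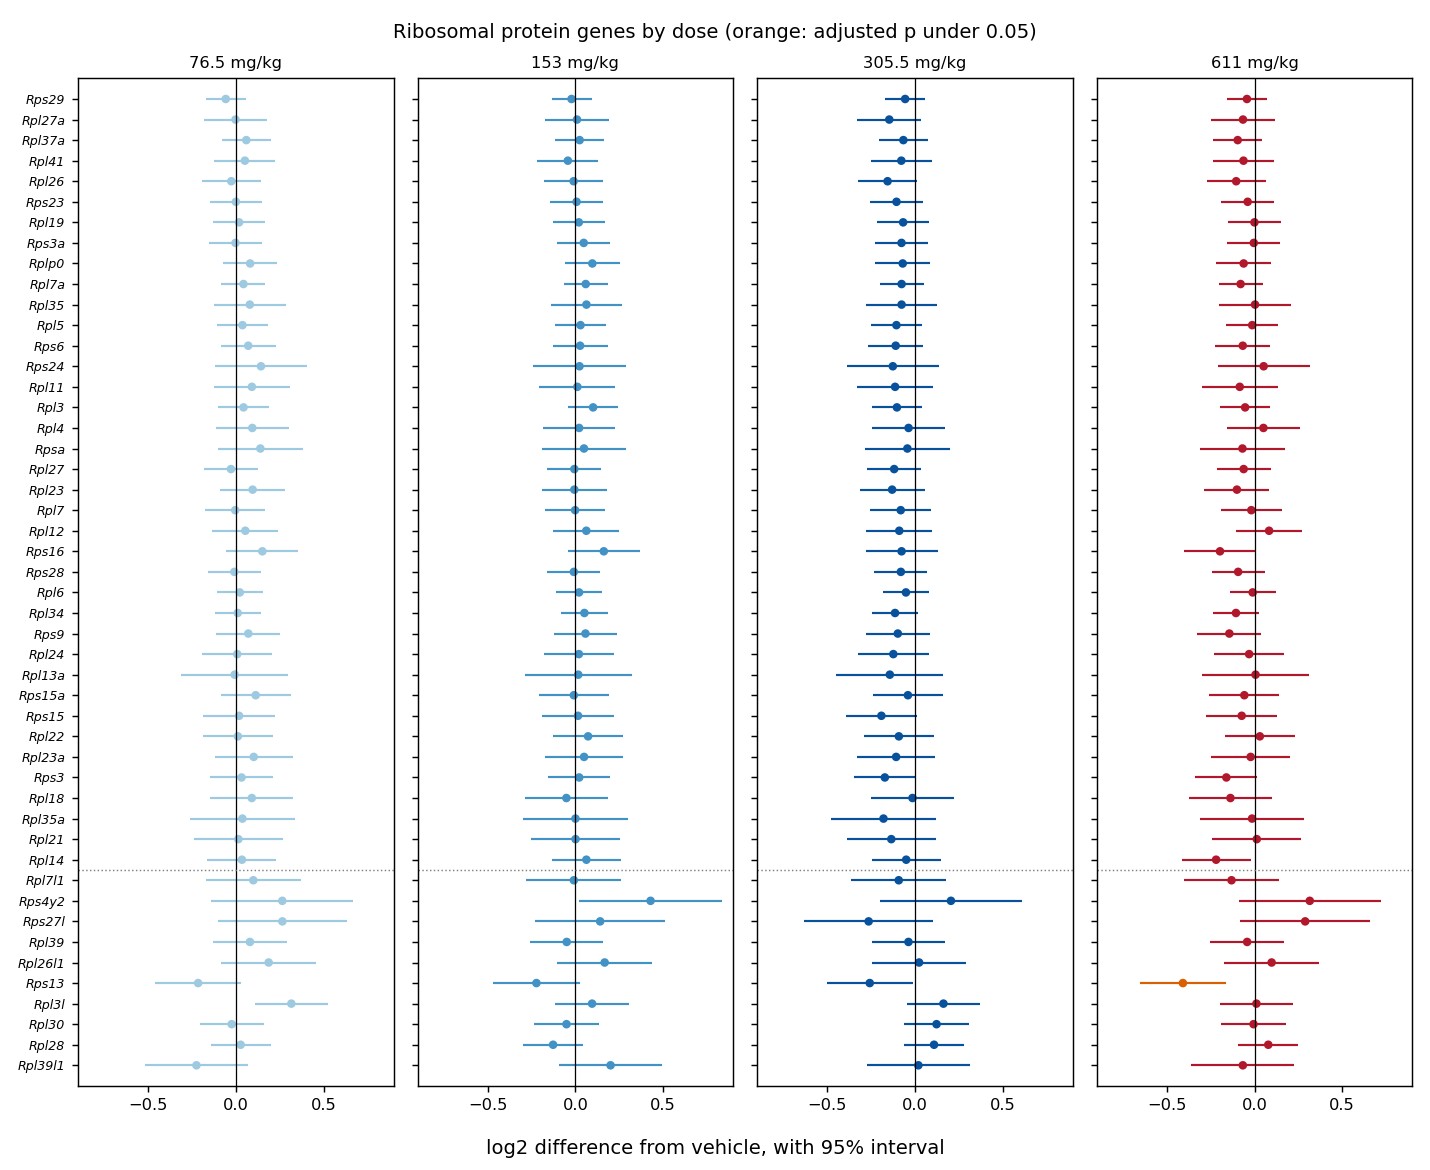
Fitted log2 difference from vehicle (point) with its 95% interval (line) for each of the 48 genes at each dose, ordered from the brightest probe set at the top to the dimmest, with the 10 genes of mean signal below 12 under the dotted line. Intervals are narrow and nearly all include 0, and Rps13 at 611 mg/kg, in orange, is the gene called.

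The median difference over the 48 genes was 0.041 at 76.5, 0.021 at 153, -0.086 at 305.5 and -0.049 at 611 mg/kg, where the medians of all genes were 0.0094, 0.0075, 0.0070 and -0.0029. Centring each array on its own median turned the value at 153 mg/kg to -0.033 and kept the sign of the others. The medians of all genes then were -0.0059, -0.046, 0.019 and -0.050 in order of dose. Members below 0 numbered 11, 14, 42 and 36 in order of dose, against 47.1%, 47.9%, 48.2% and 50.6% of all genes. At 305.5 mg/kg all 38 members of bright probe sets were below 0, with a median of -0.095, while the median of the 10 dimmer ones was 0.021. The 2 subunits stood close together there, at -0.089 over the 12 bright small-subunit members and -0.098 over the 26 bright large-subunit members. The median at 305.5 mg/kg was -0.022 without rat 2 of that group. The value at 611 mg/kg was -0.0022 without rat 3 and -0.097 without rat 2, the array with the large GAPDH difference. At 76.5 mg/kg it turned from 0.041 to -0.053 without rat 2.

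At 305.5 mg/kg members with a long and a short pyrimidine run at the start had similar medians. The median difference there was -0.086 over the 30 members with a pyrimidine run of at least 8 and -0.090 over the 13 with a shorter run. The medians were -0.060 and -0.054 at 611 mg/kg, 0.022 and 0.021 at 153 mg/kg, and 0.041 and 0.052 at 76.5 mg/kg. The difference between these sets was not tested.

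Rps13, a protein of the small subunit, gave the single call. Its log2 signal was 6.27, 6.29, 6.49, 6.69 and 6.42 in the vehicle rats. The rats given 611 mg/kg had 6.17, 5.91 and 5.98, all below the lowest vehicle rat. Rps13 was 1 of 3 members whose 611 mg/kg rats all lay below the vehicle range, with none above it, beside 7.13% and 11.5% of all genes. Signals were 6.16, 6.14 and 6.35 at 76.5 mg/kg, 6.02, 6.43 and 6.17 at 153 mg/kg, and 6.36, 6.12 and 6.03 at 305.5 mg/kg, and each of these groups overlapped the vehicle rats. Rps13 fell by 0.41 ± 0.12 (SE) at 611 mg/kg, 0.753 of the vehicle signal (limma, adjusted p = 0.0416, n = 3 against 5). Along the dose rank it fell by 0.0907 ± 0.0256 per step (limma, adjusted p = 0.0372).

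The call on Rps13 lay close to the threshold. It was lost at 611 mg/kg when vehicle rat 3, 4 or 5, 153 mg/kg rat 3, 305.5 mg/kg rat 2, or 611 mg/kg rat 2 or 3 was left out, with limma adjusted p from 0.0512 to 0.183. With the GAPDH difference as a covariate the fitted difference was -0.40 and the limma adjusted p 0.0645. The probe set is dim, and the bright probe set that lists Rps13 among 4 symbols differed from vehicle by -0.12 ± 0.07 (SE; limma adjusted p = 0.367 over all probe sets).

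**Figure D2:**
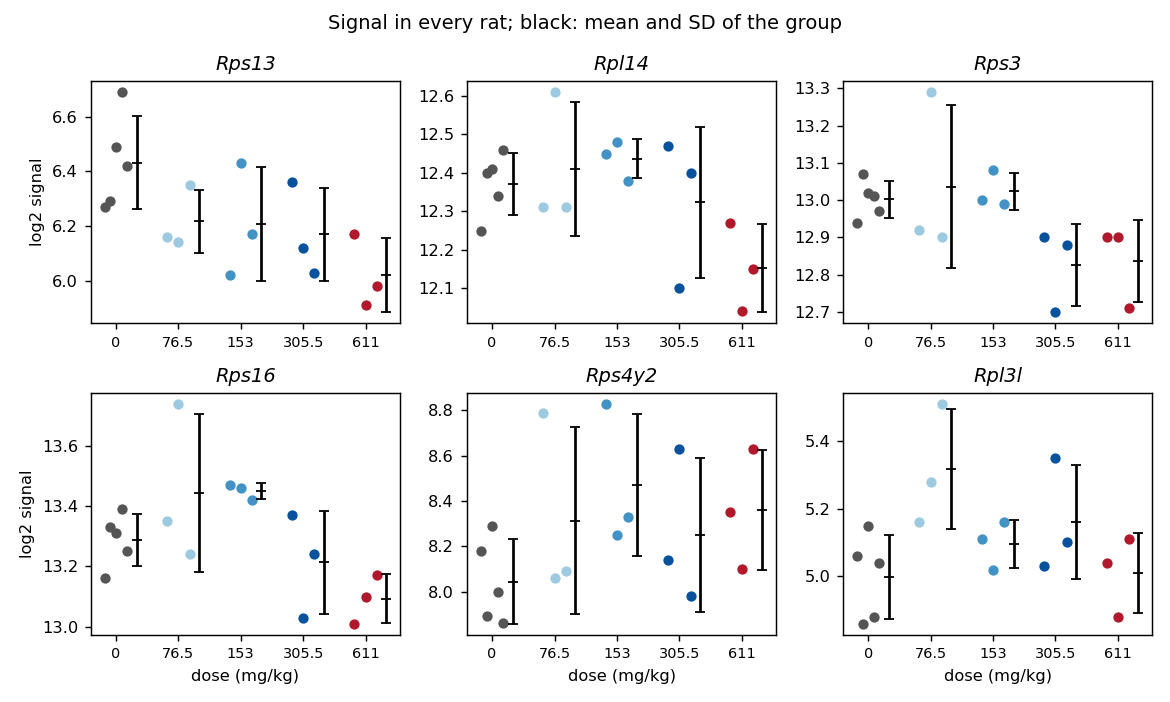
Log2 signal of 6 genes in every rat (points) against the dose in mg/kg, with the group mean and SD in black; each panel has its own vertical scale that does not start at 0. Rps13 at 611 mg/kg and Rps3 at 305.5 and 611 mg/kg lie wholly below the vehicle rats, while Rps4y2 is spread widely in every group.

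Among the other small-subunit genes Rps3, which forms part of the entry channel for messenger RNA and also takes part in DNA repair, had the most regular pattern. Its signal was 12.94, 13.07, 13.02, 13.01 and 12.97 in the vehicle rats, 12.90, 12.70 and 12.88 at 305.5 mg/kg and 12.90, 12.90 and 12.71 at 611 mg/kg. All 6 rats of these 2 groups lay below the vehicle range. The differences were -0.17 ± 0.08 and -0.16 ± 0.08 (SE), and neither passed (limma adjusted p = 0.393 and 0.252). At 76.5 mg/kg the rats had 12.92, 13.29 and 12.90, so that 1 lay above and 2 below the vehicle rats.

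Rps16, whose tail reaches the peptidyl-tRNA site, was 13.47, 13.46 and 13.42 at 153 mg/kg, above all vehicle rats (13.16, 13.33, 13.31, 13.39 and 13.25). It was the single member with its 153 mg/kg rats all above the vehicle range and no member had them all below, beside 8.3% and 4.42% of all genes. At 611 mg/kg Rps16 was 13.01, 13.10 and 13.17, and here the highest rat reached into the vehicle range. The differences were 0.16 ± 0.10 and -0.20 ± 0.10 (SE), with limma adjusted p = 0.532 and 0.226.

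Rps15 and Rpl26 joined Rps3 as the 3 members with all 305.5 mg/kg rats below the vehicle range, and none lay above it, beside 7.34% and 6.37% of all genes. Rps15 was 12.93, 12.70 and 12.83 there against 12.94 to 13.10 in the vehicle rats, a difference of -0.19 ± 0.10 (SE; limma adjusted p = 0.412). Rpl26, which binds the messenger RNA of p53 besides its place in the large subunit, was 13.81, 13.65 and 13.78 there against 13.84 to 13.96. The third member below the vehicle range at 611 mg/kg, beside Rps13 and Rps3, was Rps9, at 13.06, 12.98 and 12.96 against 13.09 to 13.27.

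Rps6, the substrate of S6 kinase, differed from vehicle by 0.071, 0.027, -0.11 and -0.068 in order of dose, none of them called. Rpsa, also known as the laminin receptor, differed by 0.14, 0.05, -0.04 and -0.07. In 76.5 mg/kg rat 2 Rpsa reached 13.90 while the other rats of that group had 13.32 and 13.27. These values are from the brightest Rpsa probe set. The other Rpsa probe sets had the opposite sign at 611 mg/kg, 0.12 ± 0.17 and 0.15 ± 0.16 (SE), and were not called. Rps29, which has the brightest probe set of all members, varied least, from 14.42 to 14.46 in the vehicle rats and from 14.30 to 14.48 in the treated rats. Rps24, a gene mutated in Diamond-Blackfan anaemia with the long pyrimidine run printed above, reached 13.99 in 76.5 mg/kg rat 2 and 13.81 in 611 mg/kg rat 2, both above all vehicle rats (13.35 to 13.62).

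Rpl14 had the most negative difference of the large-subunit members at 611 mg/kg. Its signal there was 12.27, 12.04 and 12.15, against 12.25, 12.40, 12.41, 12.34 and 12.46 in the vehicle rats, so 1 of the 3 rats lay inside the vehicle range. The difference was -0.22 ± 0.09 (SE) and did not pass (limma adjusted p = 0.161), and the second, dim probe set of Rpl14 differed by -0.07 ± 0.09 (SE). Rpl18 was 12.28 in 611 mg/kg rat 2 and 12.90 and 12.67 in the other rats of that group, against 12.64 to 12.83 in the vehicle rats, so the group's difference of -0.14 rested on 1 rat.

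Rplp0 forms the base of the stalk that recruits translation factors. It was 13.50 to 13.61 in the vehicle rats and 13.53, 13.57 and 13.43 at 611 mg/kg, a difference of -0.062 ± 0.074 (SE; limma adjusted p = 0.633). Rpl5 and Rpl11 enter the ribosome together with 5S RNA and, when free, bind the p53 inhibitor Mdm2. Rpl5 differed by -0.013 ± 0.070 and Rpl11 by -0.085 ± 0.103 (SE) at 611 mg/kg, and both overlapped the vehicle rats. Rpl3, which lies near the peptidyl transferase centre, differed by 0.04, 0.10, -0.10 and -0.05 in order of dose. Rpl22, Rpl27a, Rpl37a, Rpl41 and Rpl7 all lay between -0.15 and 0.07 at every dose with none called. The second, dimmer probe set of Rpl7 differed by 0.33 ± 0.19 (SE) at 611 mg/kg (limma adjusted p = 0.350 over all probe sets).

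The paralogs, some of which replace a core protein in certain tissues, had probe sets of mean signal below 12. No detection call was used to tell their signals from background. Rpl3l, the muscle form of Rpl3, was 5.16, 5.28 and 5.51 at 76.5 mg/kg, above all vehicle rats (5.06, 4.86, 5.15, 4.88 and 5.04). It was the single member with its 76.5 mg/kg rats all above the vehicle range, and Rpl39l1 the single one with them all below, beside 3.14% and 3.16% of all genes. The difference of Rpl3l was 0.32 ± 0.10 (SE; limma adjusted p = 0.235), and it was 0.01 at 611 mg/kg. Rpl39l1 was 3.99, 3.94 and 3.85 at 76.5 mg/kg against 3.99 to 4.29 in the vehicle rats, with the closest rats equal at 2 decimals and all at the dim end of the arrays.

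Rps27l, a paralog of Rps27 that p53 induces, did not follow the dose. It was 8.14, 8.19, 8.01, 8.13 and 8.32 in the vehicle rats, 8.41, 7.68 and 7.59 at 305.5 mg/kg and 8.17, 8.63 and 8.54 at 611 mg/kg. The differences were -0.26 ± 0.18 and 0.29 ± 0.18 (SE), neither called. Rps4y2, an autosomal copy of Rps4 on chromosome 4 in the rat annotation, had the largest SD of all members among the vehicle rats, 0.186. Its signal was 8.83, 8.25 and 8.33 at 153 mg/kg against 7.86 to 8.29 in the vehicle rats, a difference of 0.43 ± 0.19 (SE; limma adjusted p = 0.391). Rps4y2 differed by 0.26, 0.20 and 0.31 at 76.5, 305.5 and 611 mg/kg, with 1 or 2 rats of each group above the vehicle range. Rpl26l1 and Rpl7l1 lay between -0.13 and 0.19 at every dose with none called. The second probe set of Rpl7l1 differed by -0.23 ± 0.11 (SE) at 611 mg/kg (limma adjusted p = 0.261 over all probe sets).

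Rats of a treated group differed from one another by more than the medians of the doses did, and in several rats most members were shifted at once. Each rat's median over the 48 genes, relative to the vehicle mean, was -0.072, 0.039, 0.003, 0.045 and -0.012 in the vehicle rats. It was -0.042, 0.262 and -0.059 at 76.5 mg/kg and 0.006, 0.095 and -0.044 at 153 mg/kg. It was 0.009, -0.209 and -0.077 at 305.5 mg/kg and -0.062, 0.050 and -0.138 at 611 mg/kg. Every group thus held rats on both sides of 0, and the SD of these medians within groups, pooled, was 0.103.

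The rat at 76.5 mg/kg numbered 2 stood highest, with 45 of 48 genes above the vehicle mean and 43 above all 5 vehicle rats. Rat 2 at 305.5 mg/kg stood lowest, with 43 genes below the mean and 39 below all vehicle rats, and in 611 mg/kg rat 3 34 genes were below all vehicle rats. The median of all genes in these 3 rats was 0.025, 0.002 and -0.005. The share of all genes outside the vehicle range in these rats was not counted. Their GAPDH differences were 1.53, 0.955 and 1.04, within the span of the vehicle rats (1.13 to 1.56) for the first and below it for the others. The same difference for beta-actin was 3.06 in 76.5 mg/kg rat 2, above the vehicle rats (2.29 to 2.90). It was 2.39 in 305.5 mg/kg rat 2, within their span, and 2.23 in 611 mg/kg rat 3, below it. The highest was 3.83, in 611 mg/kg rat 2. In each treated group the order of the rats by GAPDH difference was the same as their order by median over the 48 genes. The lowest and highest GAPDH differences were 1.02 and 1.53 at 76.5 mg/kg and 0.928 and 1.41 at 153 mg/kg. They were 0.955 and 1.53 at 305.5 mg/kg and 1.04 and 2.89 at 611 mg/kg. Among the vehicle rats the orders differed, and the rat with the highest GAPDH difference, 1.56, had a median of 0.003. The part of RNA quality in these rat-to-rat differences was not tested.

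**Figure D3:**
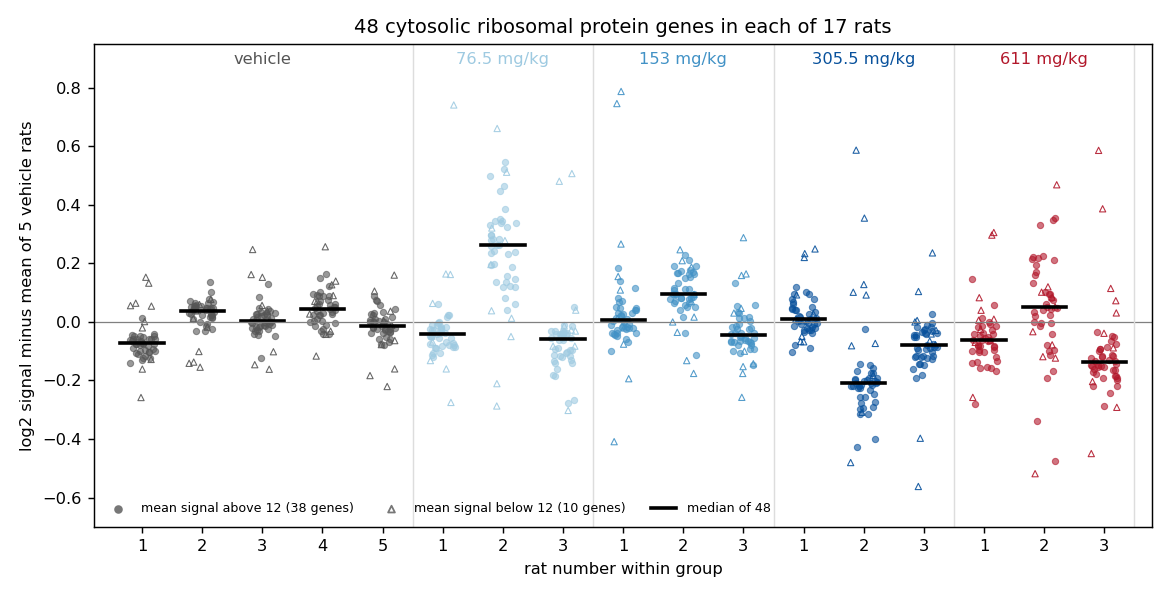
Log2 signal minus the mean of the 5 vehicle rats for the 48 genes (points) in each of the 17 rats, with the median as a black bar; filled circles are the 38 genes with a mean signal above 12 and open triangles the 10 below. Most genes are shifted together up in 76.5 mg/kg rat 2 (median 0.262) and down in 305.5 mg/kg rat 2 (median -0.209), and the other rats of those groups lie nearer 0.

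Probe sets that list several ribosomal protein symbols did not enter the 48. There were 35 of them, with median differences of 0.047, 0.0094, -0.12 and -0.039 in order of dose. None was called in a fit over all 31042 probe sets that are not controls, where 0.116%, 0.364%, 1.03% and 3.54% were called. The medians of the 35 were 0.292 in 76.5 mg/kg rat 2, -0.254 in 305.5 mg/kg rat 2 and -0.150 in 611 mg/kg rat 3. All 35 were below the vehicle mean in 305.5 mg/kg rat 2. They were grouped after the values were seen, and they come from the same arrays as the members.

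Other genes of protein synthesis were read from lists. Rack1, a scaffold protein on the small subunit whose symbol falls outside the naming rule, differed from vehicle by 0.10, 0.00, -0.13 and -0.09, none called. Of 7 elongation factors measured 1 fell at 611 mg/kg, Eef2, which moves the ribosome along the messenger RNA, by 0.26 ± 0.07 (SE; limma adjusted p = 0.0326), and none rose. The median of the 7 was 0.074, 0.006, -0.10 and -0.071 in order of dose. Of 32 initiation factors none was called at any dose. Of 77 ribosome assembly genes 1 rose, the nuclear export receptor Xpo1 at 611 mg/kg, by 0.34 ± 0.09 (SE; limma adjusted p = 0.0304). Of 73 mitochondrial ribosomal proteins 1 fell, Mrps7 at 611 mg/kg, by 0.30 ± 0.09 (SE; limma adjusted p = 0.0438). All of these counts stand beside the 7.46% of all genes called at 611 mg/kg.

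In the list of mTOR and S6 kinase genes, which act upstream of TOP messenger RNAs, 1 of 26 was called higher at 153, 2 at 305.5 and 2 at 611 mg/kg, and none lower. The shares of all genes called higher at these doses were 0.408%, 0.753% and 5.04%. Ddit4, an inhibitor of mTOR complex 1, rose by 2.14 ± 0.37 at 153, 2.14 ± 0.37 at 305.5 and 1.41 ± 0.37 (SE) at 611 mg/kg (limma adjusted p = 0.00900, 0.00483 and 0.0296). Eif4ebp1, which blocks the cap-binding factor eIF4E, rose by 0.47 ± 0.11 (SE) at 305.5 mg/kg (limma adjusted p = 0.0255). Deptor, an mTOR-binding inhibitor, rose by 0.49 ± 0.11 (SE) at 611 mg/kg (limma adjusted p = 0.0119). The arrays measure RNA abundance and not its translation, so activity of the pathway was not measured.

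**Figure D4:**
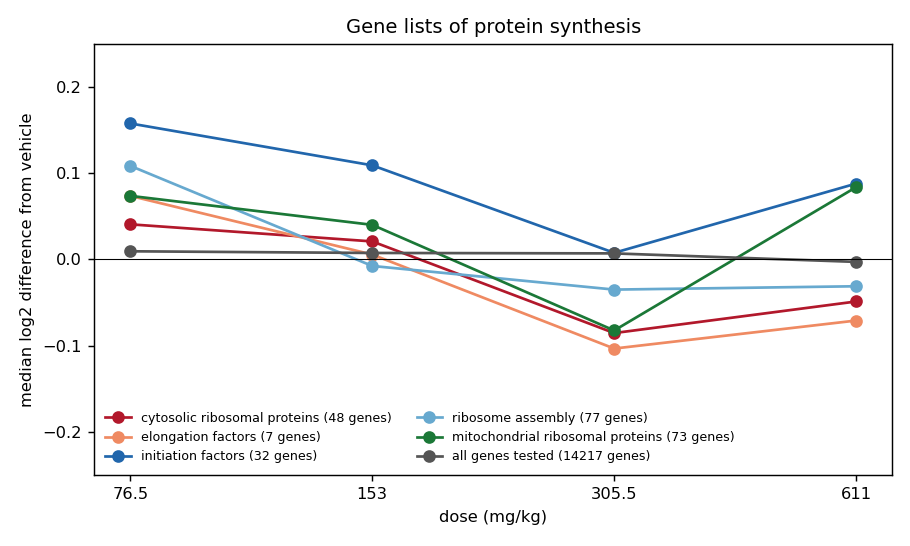
Median log2 difference from vehicle (vertical axis) at each dose in mg/kg for the cytosolic ribosomal proteins, 4 other gene lists of protein synthesis and all genes tested; the doses are evenly spaced and share the same 5 vehicle rats. Every median lies within 0.2 of vehicle, and the cytosolic ribosomal proteins run from 0.041 at 76.5 mg/kg to -0.086 at 305.5 mg/kg.

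The lists also separated from one another in single rats. In 76.5 mg/kg rat 2, where the 48 genes had a median of 0.262, elongation factors were at 0.189 and mitochondrial ribosomal proteins at 0.241, while assembly genes were at -0.047. In 76.5 mg/kg rat 3 assembly genes were at 0.513 and initiation factors at 0.297, while the 48 genes were at -0.059. For 611 mg/kg the mitochondrial ribosomal proteins had a median difference of 0.084 where the cytosolic ones had -0.049. The difference between these lists was not tested.

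Markers of other liver cells moved at the doses where the 48 genes lay slightly below vehicle. All 5 endothelial markers fell at 611 mg/kg, with a list median of -0.51, and 1 of the 5 (Pecam1) fell at 305.5 mg/kg, where 2.42% and 1.47% of all genes were called lower. The rats' endothelial medians ran from -0.134 to 0.161 in the vehicle group, from -0.550 to -0.225 at 305.5 mg/kg and from -0.662 to -0.393 at 611 mg/kg. Of 3 red cell markers Hbb fell by 1.63 and Alas2 fell by 1.34 at 611 mg/kg, and of 6 stellate cell markers Pdgfrb fell at both doses. The stellate cell list had medians of -0.30 at 305.5 and -0.28 at 611 mg/kg. At each of these doses 5 of its markers were below 0 and 1 was above, by 0.32 and 0.41. Of 3 cholangiocyte markers Epcam rose by 0.72 and Krt7 fell by 0.43 at 611 mg/kg, where 5.04% of all genes were called higher. Of 6 macrophage and 6 lymphocyte markers none was called. Their medians were -0.38 and 0.015 at 305.5 mg/kg and -0.34 and -0.16 at 611 mg/kg. All 6 macrophage markers were below 0 at both doses, and of the lymphocyte markers 3 and 5 were. The part of these cells in the ribosomal protein values was not tested.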

How the data were processed

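The authors deposited log2 values per probe set, made with RMA per the submitters' processing notes, with no software or version stated in those notes. RMA scales all arrays to one distribution, so a change common to most RNAs would not show. Probe sets were named through the platform annotation (20826 with 1 symbol, 436 several, 9780 none; 57 controls), and 46 of the 48 gene IDs matched the RefSeq table. Scanner files were not analysed here.

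One linear model over all 17 arrays, with group as factor (or dose rank as slope) and eBayes with trend, was fitted to 14217 genes with limma 3.58.1 in R 4.3.3, with Benjamini-Hochberg adjustment within each comparison; a call is an adjusted p under 0.05. The code was tested on simulated data. The labels do not say how rats were housed or whether arrays ran in batches. Whether the replicate numbers in the labels pair rats is not known. No array values were identical.

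The members, gene lists and tests were chosen with earlier results of these data known. Named were called members, the 3 largest rises and falls per dose, the 5 brightest and 5 dimmest probe sets, the 3 largest vehicle SDs and genes by role; of these roles Rplp1, Rplp2, Rps2, Rpl10, Rps27a, Rpl22l1, Rpl39l and Rps27 had no probe set of their own symbol. Rps9, Rps24, Rpl34 and Rpl35 were named after their values or sequences were seen. Alternatives were another gene summary, a low-signal filter, median centring, array weights, eBayes without trend, a replicate block, omitted arrays, a GAPDH covariate, other dose scales and all probe sets, the last chosen after the data were seen.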

Additional observations from a re-analysis of the deposited data

Results flagged for a closer look

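In 2 of the 48 genes tested for it, 1 vehicle rat stood apart from the other 4 by Dixon's gap ratio, the gap to the nearest rat over the whole range of the group; chance gives about 1 in 20. For Rpl26l1 the ratio was 0.723, with vehicle rat 1 at 6.39, the next rat at 6.65 and the highest at 6.76. For Rps9 it was 0.765, with vehicle rat 3 at 13.27, the next rat at 13.13 and the lowest at 13.09.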

How the results depend on the processing

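The count of members called lower at 611 mg/kg, 1 in the values reported, was 0 without the dimmest 40% of genes (which leaves Rps13 untested), without the 3 arrays that an earlier analysis set apart (76.5 mg/kg rats 2 and 3 and 611 mg/kg rat 2), with the GAPDH covariate and with all probe sets tested, and 2 with array weights, which added Rps3 (-0.22, limma adjusted p = 0.0416). For the slope it was 0 without the dimmest genes, without the 3 arrays, with dose in units of the top dose, over the treated rats alone, without the 611 mg/kg group and with all probe sets tested. Array weights gave 1 member higher at 76.5 mg/kg, Rps4y2 (0.67, limma adjusted p = 0.0159). With array weights 4.9% of all genes were called in either direction at 76.5 mg/kg and 13.3% at 611 mg/kg. The signal of Rps4y2 at 76.5 mg/kg was 8.79 in rat 1 and 8.06 and 8.09 in the others. Leaving out single rats gave 0 to 1 called lower at 611 mg/kg and 0 to 1 for the slope, which lost the call without vehicle rat 3, 4 or 5, 305.5 mg/kg rat 3 or 611 mg/kg rat 2 or 3. No other count changed, and no named member reversed a call. Member medians over these fits without single rats ran from -0.053 to 0.098 at 76.5, -0.019 to 0.054 at 153, -0.145 to -0.022 at 305.5 and -0.097 to -0.0022 at 611 mg/kg. The median at 76.5 mg/kg was -0.026 with array weights and -0.043 without the 3 arrays, and at 611 mg/kg it lay between -0.0975 and -0.0962 with array weights, median centring, the GAPDH covariate or without the 3 arrays. The median of all genes at 611 mg/kg was -0.050 with median centring. It lay between -0.0033 and 0.0031 in the other fits just listed.

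Deviations of same-numbered rats from their group means correlated at -0.259 to 0.399 (30 pairs, median 0.011, 10 over 0.1). Those of differently numbered rats correlated at -0.353 to 0.341 (60 pairs, median -0.027, 12 over 0.1). Such deviations sum to 0 within each treated group, which holds the correlations near 0 on average. They therefore cannot decide whether the numbers pair rats. With a replicate block 0 members were lower at 611 mg/kg and 0 for the slope; Rps13 was at -0.33 (limma adjusted p = 0.224). The block moved the count of all genes called at 611 mg/kg from 1060 to 387. Vehicle rats 4 and 5 share their numbers with no treated rat, so this block fits them exactly and they drop out of the comparisons. The effect of the block apart from that of losing these rats was not tested.

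With 3 rats a dose, differences of single members under about 0.5 are poorly resolved for the dim probe sets. Causes of these changes were not tested.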
